A study of Mus musculus with 8 samples.

Results

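The genes described here are 9 transcription regulators that act at entry into meiosis or later in the making of eggs and sperm: *Stra8*, *Sohlh1*, *Sohlh2*, *Figla*, *Nobox*, *Lhx8*, *Dmrt1*, *Mybl1* and *Tcfl5*. They were found on the array as the non-control probes whose RefSeq accession belongs to one of these genes, which gave 9 genes of the 19751 that could be named. Each gene had 1 probe.

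Gene expression was measured in VV3 ESCs, a male mouse embryonic stem cell line with a *Vasa*::Venus transgene, a fluorescent reporter of the germ cell gene *Vasa* (*Ddx4*), grown on STO feeder cells in medium with serum and LIF. Cells received siRNA against *L3mbtl2* (4 samples, *L3mbtl2*-KD ESCs) or AllStars, a siRNA that silences no gene (4 samples, control ESCs), with 1 one-colour Agilent array per sample. Per the methods, *Vasa*-positive cells were purified by FACS for the *L3mbtl2*-KD profile, and whether control cells were also sorted is not stated for these arrays, so the knockdown and the sort cannot be told apart. Each array held 43020 spots outside the controls, of which 59.5 to 66.6% were well above background, and the number of arrays limits the precision.

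Germ cells switch from mitosis to meiosis when retinoic acid induces *Stra8*, and RNA-binding proteins such as DAZL make them able to respond. SOHLH1 and SOHLH2 are basic helix-loop-helix proteins of spermatogonia and early oocytes, FIGLA, NOBOX and LHX8 drive oocyte gene expression in the ovary, DMRT1 governs the choice between mitosis and meiosis in the testis, and MYBL1 and TCFL5 act in spermatocytes. L3MBTL2 belongs to a Polycomb complex with PCGF6 and MAX that represses germ cell genes in ESCs.

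Values are log2 intensities minus the 75th percentile of the array, so 0 is the 75th percentile itself. *L3mbtl2* itself (NM_145993), the target of the siRNA, was at -1.45, -1.26, -1.58 and -1.73 in *L3mbtl2*-KD replicates 1 to 4 and at 0.27, -0.18, -0.21 and -0.31 in control replicates 1 to 4. All *L3mbtl2*-KD samples lay below all control samples, with a log2 fold change of -1.40 (limma adjusted p = 0.00094, standard error 0.15).

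Of the 9 regulators, 6 were tested, and all 8 arrays had the probes of these 6 well above background. *Stra8* and *Sohlh2* were up-regulated, that is, their limma adjusted p was below 0.05 and their rise above 2-fold, and none of the 6 was down-regulated. Over all 13653 genes tested, 340 (2.49%) were up-regulated and 438 (3.21%) were down-regulated by the same rule. *Dmrt1* and *Tcfl5* also had an adjusted p under 0.05 but rose less than 2-fold, so 4 of the 6 were higher whatever the fold, against 9.35% of all genes tested. The same 4 were higher with no overlap between the groups, against 12.6% of all genes. The regulators were chosen with earlier results of these data known, so these shares describe them and do not test them as a set. *Sohlh1* and *Mybl1* did not pass the test, and *Figla*, *Nobox* and *Lhx8* were too dim to be tested.

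**Figure D1:**
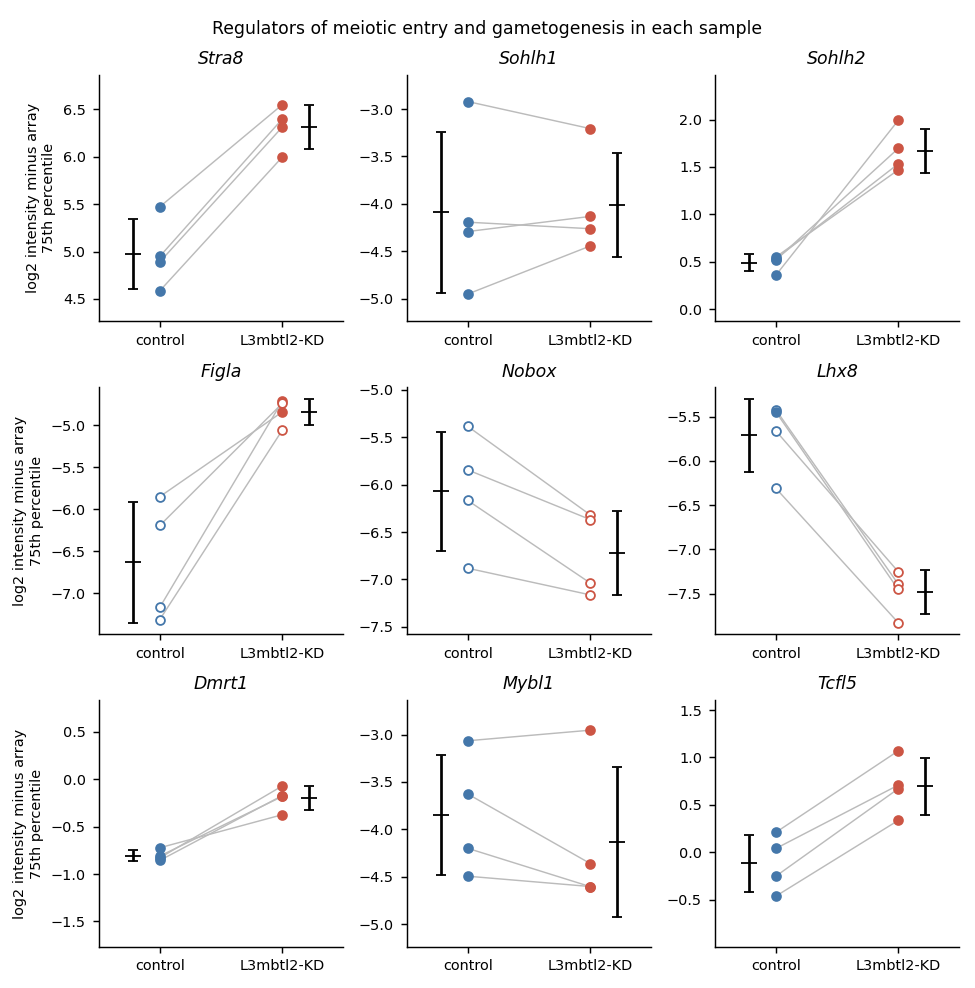
Log2 intensity minus the 75th percentile of the array for the 9 regulators in control (blue) and *L3mbtl2*-KD (red) ESCs, with each panel on its own scale, lines joining samples of the same replicate number, open circles where the probe was not well above background, and black bars for mean and SD (n = 4). All 4 *L3mbtl2*-KD samples lie above all 4 control samples for *Stra8*, *Sohlh2*, *Dmrt1*, *Tcfl5* and the dim *Figla*, and below them for the dim *Lhx8*.

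Promoter windows, from 250 bases before to 50 bases after the gene start in RefSeq (GRCm38.p6), were at hand for 7 of the 9 genes. The set of windows used here held none for *Dmrt1* and *Mybl1*. They were searched on both strands for exact matches to CACGTG (the E-box bound by MAX), GCGGGAA (the E2F core), AGGTGTGA (a T-box motif, as in MGA) and AGGTCA (the nuclear receptor motif, as for retinoic acid receptors). Of all 32851 windows of this length, 7.15% held CACGTG, 4.60% held GCGGGAA, 1.28% held AGGTGTGA and 16.3% held AGGTCA. The windows of the genes that were up-regulated are shown first, with matches in capitals. *Stra8* lies on the plus strand at chr6:34920698-34920997 and *Sohlh2* on the plus strand at chr3:55181794-55182093.
Stra8: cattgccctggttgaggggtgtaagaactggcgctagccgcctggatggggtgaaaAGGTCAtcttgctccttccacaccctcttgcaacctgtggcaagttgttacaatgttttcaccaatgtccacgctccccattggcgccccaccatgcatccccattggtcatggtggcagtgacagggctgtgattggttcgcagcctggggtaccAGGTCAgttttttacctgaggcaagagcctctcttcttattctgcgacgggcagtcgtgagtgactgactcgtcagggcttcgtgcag
Sohlh2: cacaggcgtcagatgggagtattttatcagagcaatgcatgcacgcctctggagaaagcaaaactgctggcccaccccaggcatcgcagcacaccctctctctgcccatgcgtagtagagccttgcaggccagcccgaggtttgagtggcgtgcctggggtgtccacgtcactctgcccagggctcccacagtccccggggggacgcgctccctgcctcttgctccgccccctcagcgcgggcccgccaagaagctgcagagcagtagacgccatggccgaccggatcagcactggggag

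The *Stra8* window held AGGTCA at 2 places, starting 194 and 38 bases before the gene start, which 1.81% of all windows matched at 2 or more places. No match to the other motifs was found there, and the *Sohlh2* window held none of the 4 motifs. CG dinucleotides numbered 10 in the *Stra8* window and 17 in that of *Sohlh2*, against a median of 7 over all windows. These counts were higher than in 56.5% and 68.6% of all windows.

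*Sohlh1* and *Tcfl5* are shown for contrast, *Sohlh1* because its window held the most matches and *Tcfl5* because it held the most CG dinucleotides. *Sohlh1* lies on the minus strand at chr2:25847199-25847498 and *Tcfl5* on the minus strand at chr2:180642642-180642941, and both are written in the direction of the gene.
Sohlh1: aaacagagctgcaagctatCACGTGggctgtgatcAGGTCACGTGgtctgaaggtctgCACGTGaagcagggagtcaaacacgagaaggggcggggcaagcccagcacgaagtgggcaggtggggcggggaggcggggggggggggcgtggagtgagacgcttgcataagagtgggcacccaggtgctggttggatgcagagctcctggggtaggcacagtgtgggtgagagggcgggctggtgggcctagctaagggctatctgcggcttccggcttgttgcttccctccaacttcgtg
Tcfl5: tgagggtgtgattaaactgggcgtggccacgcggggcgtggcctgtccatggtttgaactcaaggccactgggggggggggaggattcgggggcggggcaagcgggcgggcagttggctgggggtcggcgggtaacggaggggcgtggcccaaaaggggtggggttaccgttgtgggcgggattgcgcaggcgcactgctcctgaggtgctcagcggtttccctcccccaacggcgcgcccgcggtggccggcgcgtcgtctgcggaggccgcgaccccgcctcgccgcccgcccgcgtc

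CACGTG was present at 3 places in the *Sohlh1* window, as in 0.0883% of all windows at 3 or more places, and the middle one shares 2 bases with a match to AGGTCA. The *Tcfl5* window held none of the motifs and 35 CG dinucleotides, more than 93.0% of all windows. Among the others, the *Nobox* window held 1 match to AGGTCA, and those of *Figla* and *Lhx8* held none of the 4 motifs. A match is a run of letters and was not tested as a binding site.

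**Figure D2:**
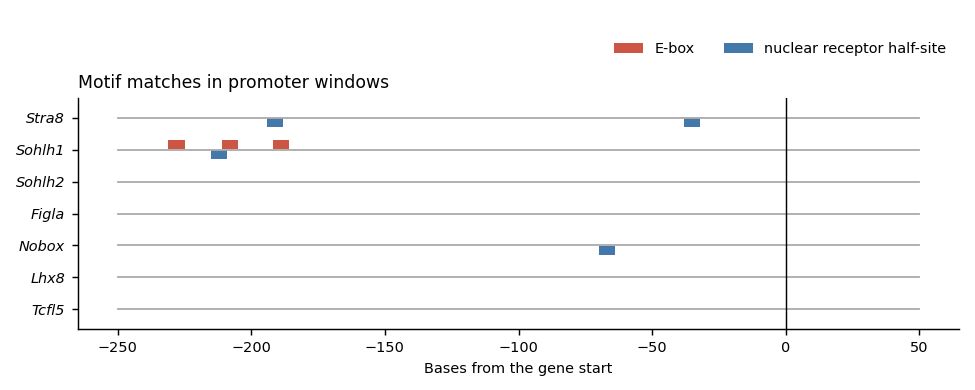
Places of motif matches in the promoter windows of 7 regulators, in bases from the gene start (0, vertical line), with E-box matches (CACGTG) in red above the line and nuclear receptor matches (AGGTCA) in blue below it. *Sohlh1* has 3 E-box matches, and *Stra8* has 2 nuclear receptor matches.

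*Stra8* (NM_009292), which is needed for the start of meiosis, was already bright in control ESCs. Its log2 value was 5.47, 4.89, 4.59 and 4.95 in control replicates 1 to 4 and 6.55, 6.31, 5.996 and 6.40 in *L3mbtl2*-KD replicates 1 to 4. Before the shift by the 75th percentile, these were intensities of 24597 to 38685 in control ESCs and 62805 to 78426 in *L3mbtl2*-KD ESCs, and no spot was saturated. The groups did not overlap: the lowest *L3mbtl2*-KD sample exceeded the highest control sample by 0.52. *Stra8* was at 4.97 ± 0.37 (SD, n = 4) in control ESCs and 6.31 ± 0.23 (SD, n = 4) in *L3mbtl2*-KD ESCs, or 2.53-fold higher (log2 fold change 1.34, 95% CI 0.90 to 1.78, standard error 0.19, limma adjusted p = 0.0032). The difference was 1.08, 1.42, 1.41 and 1.45 between samples of replicate number 1 to 4. Replicate 1 was the highest sample of both groups and had the smallest of these differences. Taken slide by slide, the groups differed by 1.25 and 1.43.

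*Sohlh2* (NM_028937), a spermatogonial and oocyte factor that pairs with SOHLH1, was at 0.53, 0.55, 0.52 and 0.36 in control replicates 1 to 4. In *L3mbtl2*-KD replicates 1 to 4 it was at 1.53, 1.47, 1.70 and 1.99. The control samples lay close together, all *L3mbtl2*-KD samples were above them, and the gap between the groups was 0.92. The mean was 0.49 ± 0.09 (SD, n = 4) in control ESCs and 1.67 ± 0.23 (SD, n = 4) in *L3mbtl2*-KD ESCs, which is 2.27-fold (log2 fold change 1.18, 95% CI 0.90 to 1.46, standard error 0.12, limma adjusted p = 0.00082). Taken slide by slide, the difference was 0.96, which is less than 2-fold, and 1.40. In its partner *Sohlh1* (NM_001001714), the values were -2.92, -4.19, -4.95 and -4.29 in control replicates 1 to 4 and -3.21, -4.26, -4.44 and -4.13 in *L3mbtl2*-KD replicates 1 to 4. *Sohlh1* was dim but above background, with intensities of 33.1 to 115 before the shift by the 75th percentile. Its groups overlapped throughout, with replicate 1 the highest of both. The log2 fold change of *Sohlh1* was 0.078 with a 95% CI of -0.90 to 1.06 (adjusted p = 0.92 from limma), and with the replicate number as a block the interval was -0.28 to 0.44 (adjusted p = 0.67 from limma).

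*Dmrt1* (NM_015826), a DM domain factor of the testis, was at -0.83, -0.72, -0.81 and -0.86 in control replicates 1 to 4 and at -0.07, -0.37, -0.18 and -0.17 in *L3mbtl2*-KD replicates 1 to 4. The groups did not overlap, and the spread was small in both (SD 0.058 in control ESCs and 0.13 in *L3mbtl2*-KD ESCs, n = 4 each). It rose 1.52-fold (log2 fold change 0.60, 95% CI 0.40 to 0.81, standard error 0.088, limma adjusted p = 0.0032). This was under the 2-fold threshold, within slides as well (0.55 and 0.66).

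*Tcfl5* (NM_178254), a helix-loop-helix factor of spermatocytes, was at 0.04, -0.46, -0.25 and 0.21 in control replicates 1 to 4 and at 0.71, 0.34, 0.67 and 1.07 in *L3mbtl2*-KD replicates 1 to 4. Here the gap between the groups was 0.13, and the samples of replicate number 2 were the lowest of both groups. Between samples of the same number the difference was 0.67, 0.80, 0.92 and 0.86. *Tcfl5* rose 1.76-fold (log2 fold change 0.81, 95% CI 0.38 to 1.24, standard error 0.19, limma adjusted p = 0.021), with differences of 0.73 and 0.89 within the slides. The limma adjusted p of *Tcfl5* was 0.064 without control replicate 3 and 0.051 without *L3mbtl2*-KD replicate 4. With the replicate number as a block, the 95% CI was 0.66 to 0.96 (adjusted p = 0.0014 from limma).

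*Mybl1* (NM_008651), the A-MYB factor of pachytene spermatocytes, was dim but above background. It was at -3.63, -3.07, -4.20 and -4.49 in control replicates 1 to 4 and at -4.36, -2.95, -4.60 and -4.60 in *L3mbtl2*-KD replicates 1 to 4. The groups overlapped, and replicate 2 was the highest sample of both. The log2 fold change was -0.28 with a 95% CI of -1.27 to 0.70 (adjusted p = 0.69 from limma), and it ran from -0.68 without *L3mbtl2*-KD replicate 2 to -0.023 without control replicate 2. With normexp background correction it was -0.011.

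**Figure D3:**
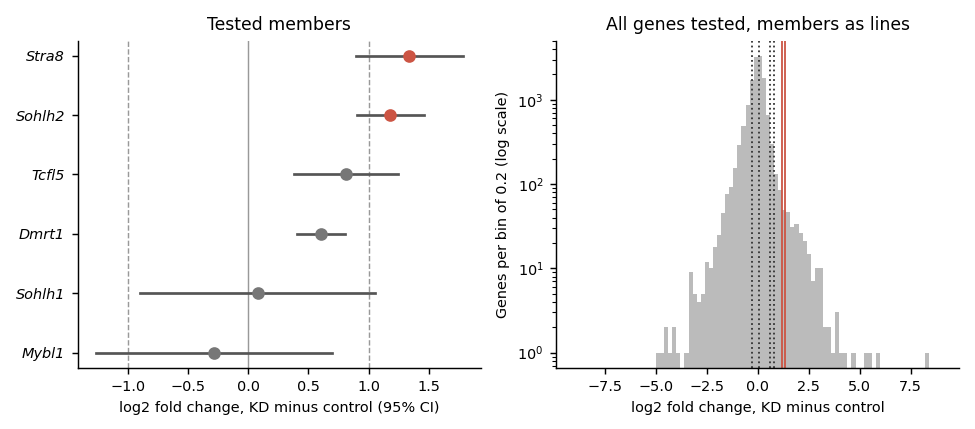
Left, log2 fold change (*L3mbtl2*-KD minus control) of the 6 tested regulators with 95% CI, where red marks the up-regulated *Stra8* (1.34) and *Sohlh2* (1.18) and dashed lines mark 2-fold. Right, number of genes (log scale) by log2 fold change over 13653 genes, one probe per gene, with the 6 regulators as vertical lines (red, up-regulated; dotted, others).

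The oocyte regulators were near or under the background of the arrays. *Figla* (NM_012013), which activates the zona pellucida genes, was well above background in 2 of the *L3mbtl2*-KD samples and in 0 of the control samples. Its values were -4.84, -5.06, -4.72 and -4.74 in *L3mbtl2*-KD replicates 1 to 4 and -5.85, -7.31, -7.17 and -6.20 in control replicates 1 to 4. The groups did not overlap, and an approximate lower bound put *Figla* 1.69-fold higher in *L3mbtl2*-KD ESCs. For this bound the *L3mbtl2*-KD mean was compared with a control mean in which each array counted at its detection floor, the smallest signal there that was well above background, or at the *Figla* signal if larger. The *L3mbtl2*-KD mean includes 2 arrays on which *Figla* was not well above background, so the bound is not a strict one.

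*Lhx8* (NM_010713), a LIM homeobox factor of early oocytes, was well above background in 1 control sample (replicate 4) and in 0 *L3mbtl2*-KD samples. It was at -6.31, -5.42, -5.66 and -5.44 in control replicates 1 to 4 and at -7.83, -7.39, -7.25 and -7.45 in *L3mbtl2*-KD replicates 1 to 4. The groups did not overlap, but no fold can be given, since the control mean did not exceed the lowest signal well above background. *Nobox* (NM_130869), an oocyte homeobox factor, was not well above background on any array, at -6.17, -5.39, -5.84 and -6.88 in control replicates 1 to 4 and -7.04, -6.32, -6.37 and -7.16 in *L3mbtl2*-KD replicates 1 to 4. Its groups overlapped. With every probe tested and no filter on dim probes, *Figla* was called up (limma adjusted p = 0.020) and *Lhx8* down (limma adjusted p = 0.0053). Most of these signals were not well above background, so neither call gives an exact fold.

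With 4 samples per group, an exact permutation test (two-sided) cannot give a p below 0.0286, and *Stra8*, *Sohlh2*, *Dmrt1*, *Tcfl5*, *Figla* and *Lhx8* each gave this value. An exact permutation test that keeps samples of the same replicate number paired cannot give a p below 0.125, which was the p of these 6 and of *Nobox*. Without pairing, the exact permutation p was 0.886 for *Sohlh1*, 0.60 for *Mybl1* and 0.143 for *Nobox*. Most signals of *Figla* and *Lhx8*, and all of *Nobox*, were not well above background, so their p values largely rank background signal.

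Other late PGC markers of the study were measured on the same arrays. *Ddx4*, whose reporter served for the sort, was at 0.86, 0.99, 0.99 and 0.85 in control replicates 1 to 4 and 3.87, 3.62, 3.70 and 3.82 in *L3mbtl2*-KD replicates 1 to 4. *Dazl* was at -1.21, -0.85, -1.21 and -2.08 in control and 0.55, 0.29, 0.21 and 0.02 in *L3mbtl2*-KD replicates 1 to 4, and *Sycp3*, a protein of the meiotic chromosome axis, ran from -1.57 to -1.08 in control and -1.63 to -1.29 in *L3mbtl2*-KD ESCs. The groups were apart for *Ddx4* and *Dazl* and overlapped for *Sycp3* (log2 fold change -0.11, 95% CI -0.41 to 0.20).

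The genes most like *Stra8* in pattern over the 8 arrays, outside the 9 regulators and with one probe per gene, were *Usp26* (Pearson's r = 0.995), *Sord* (r = 0.994) and *Tmem40* (r = 0.994). For *Sohlh2* they were *Etfa* (r = 0.995), *Smim8* (r = 0.993) and *Nrf1* (r = 0.991). These values span both groups, so any gene that differs between the groups with little spread scores high. Of the 6, *Tmem40* (log2 fold change 1.14) and *Usp26* were up-regulated, and the others changed less than 2-fold. *Usp26* cleared background on 2 of 4 control arrays, so no fold is given, and its call and its r rest partly on control values that were not well above background. Among the regulators themselves, r over the 8 arrays was 0.90 for *Stra8* with *Sohlh2*, 0.96 for *Sohlh2* with *Dmrt1* and 0.039 for the dim *Sohlh1* with *Sohlh2*.

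Genes around these regulators were followed in 6 lists, with 60 genes tested in all, of which 9 were up-regulated and 7 down-regulated. Meiotic entry partners and regulators had 9 genes tested, of which 3 were up-regulated and 0 down-regulated, with a median log2 fold change of 0.46, against -0.011 for all genes. *Dazl* rose (1.61, standard error 0.25), as did *Meioc*, whose product lets germ cells leave the mitotic cycle (1.57, standard error 0.11), and *Rec8*, the meiotic cohesin subunit (1.38, standard error 0.23), with adjusted p of 0.0039, 0.00017 and 0.0058 in limma. *Meioc* has a second, dimmer probe with 1.22 (limma adjusted p = 0.077; 0.040 with the replicate number as a block). *Rec8* was at 1.72 to 2.33 in control and 2.91 to 3.94 in *L3mbtl2*-KD ESCs, and *Meioc* at -0.81 to -0.39 and 0.79 to 1.08, with no overlap in either gene. Another cohesin subunit, *Smc1b*, rose less than 2-fold (0.68, limma adjusted p = 0.0033), and *Zglp1* (0.20) and *Nanos3* (0.37) did not pass the test. *Rbm46* (named after its values were seen) cleared background in 2 *L3mbtl2*-KD samples and no control sample. *Nanos2* was not well above background on any array.

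In the retinoic acid list, which holds the enzymes, binding proteins and receptors, 16 genes were tested, 0 were up-regulated and 4 were down-regulated (median -0.38). Feeder fibroblast markers, followed below, had a median of -1.83, and the part of feeder cells in this list was not tested. *Dhrs3*, which reduces retinaldehyde, was at 0.60 to 0.95 in control and -0.44 to -0.12 in *L3mbtl2*-KD ESCs (log2 fold change -1.09, limma adjusted p = 0.00071). *Crabp1*, a binding protein, fell by 1.29 (limma adjusted p = 0.017), and *Cyp26b1*, which degrades retinoic acid, fell by 1.63 (limma adjusted p = 0.017). Both lost the call under the one-way test named in the study's captions (adjusted p = 0.053 each). *Crabp1* also lost it without control replicate 3 (adjusted p = 0.054 in limma), and *Cyp26b1* fell by 0.85 with normexp background correction. *Rarb*, itself a receptor that retinoic acid induces, was called through its dimmer probe (limma adjusted p = 0.0081), which cleared background on 1 *L3mbtl2*-KD array, so that no fold is given, and which was not tested when all arrays had to clear background. Its brighter probe gave -0.86 (limma adjusted p = 0.12), with *L3mbtl2*-KD replicate 1 at -1.66 and the other *L3mbtl2*-KD samples at -3.39 to -3.08. The dimmer probe of *Rarb* also lost its call when normexp background correction or quantile normalization was used or *L3mbtl2*-KD replicate 2 left out, and the brighter one changed more than 2-fold without *L3mbtl2*-KD replicate 1 (-1.25, limma adjusted p = 0.0011). The brightest members, the receptors *Rarg* (0.29), *Rara* (-0.46) and *Rxrb* (0.11), did not pass the test in their brightest probes. A dimmer probe of *Rara* fell by 0.42 (limma adjusted p = 0.026), and a dimmer probe of *Rxrg* (named after its values were seen) rose by 0.85 (limma adjusted p = 0.0010), while the brighter one gave 0.098.

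Spermatogonial regulators had 10 genes tested, 2 up-regulated and 1 down-regulated, with a median of -0.045. *Neurog3*, a factor of differentiating spermatogonia, was at -2.85 to -2.08 in control and -0.84 to 0.31 in *L3mbtl2*-KD ESCs (log2 fold change 2.15, limma adjusted p = 0.0018), and *Dmrtb1*, which coordinates the mitosis to meiosis transition in the testis, rose by 1.40 (limma adjusted p = 0.0018). *Zbtb16*, a factor of undifferentiated spermatogonia, was down-regulated (limma adjusted p = 0.0022), but its signal cleared background on only 3 *L3mbtl2*-KD arrays, so no fold is given, and it was not tested when all arrays had to clear background. *Etv5* (-0.13), *Sall4* (-0.23) and *Kit* (0.044) did not pass the test.

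Among later spermatogenic regulators and pachytene genes, 8 were tested and 3 were up-regulated, with 0 down-regulated and a median of 0.37. *Tdrd12*, a piRNA pathway gene, was at -1.45 to -0.67 in control and 0.86 to 1.20 in *L3mbtl2*-KD ESCs (log2 fold change 2.17, limma adjusted p = 0.00028). *Taf7l*, a germ cell subunit of TFIID, rose by 1.75 (limma adjusted p = 0.00014). *Brdt*, a testis bromodomain gene, was called through its dimmer probe (1.63, limma adjusted p = 0.00096), which gave 0.87 with normexp background correction, while its brighter probe gave 0.26 (limma adjusted p = 0.25). *Tbpl1* rose less than 2-fold (0.67, limma adjusted p = 0.0054), and *Crem* (0.47) and *Rfx2* (0.045) did not pass the test.

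Genes that depend on the oocyte factors in the ovary were mostly dim: 7 of 15 were tested, with 0 up-regulated, 0 down-regulated and a median of 0.067, and 6 were not well above background on any array. *Zp3*, a zona pellucida gene, rose less than 2-fold, from -2.07 to -1.26 in control ESCs to -1.09 to -0.51 in *L3mbtl2*-KD ESCs (log2 fold change 0.91, limma adjusted p = 0.012). It passed 2-fold without control replicate 1 (1.05) or *L3mbtl2*-KD replicate 2 (1.01). *Padi6* fell by 0.49 (limma adjusted p = 0.045), and *Nlrp5* (0.24) did not pass the test.

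The paralogues of *Dmrt1*, *Mybl1* and *Lhx8* had 11 genes tested, 2 up-regulated and 2 down-regulated, with a median of 0.018. In the DM domain family, *Dmrtc2* was at -2.37 to -2.19 in control and -0.14 to 0.58 in *L3mbtl2*-KD ESCs (log2 fold change 2.57, standard error 0.16, adjusted p = 8.3e-05 in limma), and *Dmrtb1* is given above. In the LIM homeobox family, *Lhx3* fell by 1.65 (limma adjusted p = 0.0018) and *Lhx5* by 1.19 (limma adjusted p = 0.022), while *Lhx2* (0.13) and *Lhx6* (-0.23) did not pass the test. With normexp background correction *Lhx3* (-0.99) and *Lhx5* (-0.54) changed less than 2-fold. *Lhx5* lost the call without the filter on dim probes (limma adjusted p = 0.054) and under the study's one-way test (adjusted p = 0.061). It also lost the call without either of *L3mbtl2*-KD replicates 1 and 4 or control replicates 3 and 4 (adjusted p of 0.0501, 0.060, 0.063 and 0.057 in limma). *Mybl2*, the paralogue of *Mybl1* in dividing cells, fell by 0.44 (limma adjusted p = 0.010).

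**Figure D4:**
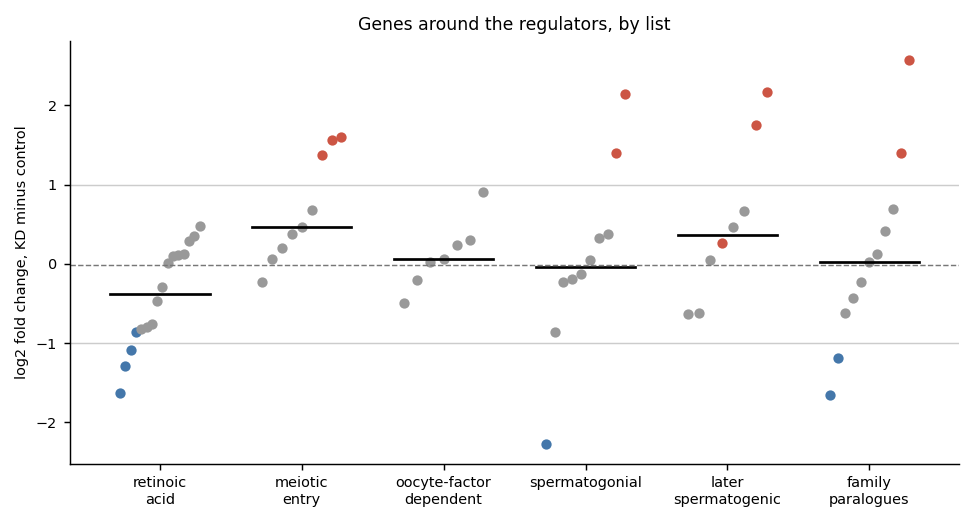
Log2 fold change (*L3mbtl2*-KD minus control) of each gene tested in the 6 lists, one point per gene from its brightest probe, red where the gene was up-regulated, blue where it was down-regulated, in any of its probes. Black bars are list medians (0.46 for meiotic entry, -0.38 for retinoic acid), the dashed line is the median of all genes (-0.011), and grey lines mark 2-fold.

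Markers of cell types that the samples could hold were followed as well. Of 12 feeder fibroblast markers tested, 6 were down-regulated and 1, *Loxl1*, was up-regulated (1.01; named after its value was seen), with a median of -1.83. In *L3mbtl2*-KD ESCs *Dcn* and *Col3a1* cleared background in no sample, and they were lower by at least 12.1-fold and 7.81-fold (limma adjusted p = 0.00037 and 0.0012), and neither was tested when all arrays had to clear background. *Col1a2* fell by 2.81, *Acta2* by 2.72, *Col1a1* by 2.22 and *Pdgfrb* by 1.57 (limma adjusted p of 0.0044, 0.0030, 0.0062 and 0.0013; *Pdgfrb* fell by 0.84 with normexp background correction). *Fn1*, *Vim* and *Thy1* fell less than 2-fold, by 0.88, 0.79 and 0.86. The summed level of the 14 markers with a probe, in multiples of the 75th percentile and so weighted by the brightness of each probe, was 59.4, 64.7, 63.7 and 60.1 in control replicates 1 to 4 and 30.8, 37.5, 35.1 and 30.3 in *L3mbtl2*-KD replicates 1 to 4, with *Fn1* its largest term, and *Lum* and *Postn* were not well above background on any array. The sort for *Vasa*-positive cells, which the methods give for the *L3mbtl2*-KD profile, would also remove feeder cells, and its part here was not tested. In bulk samples, fewer cells of a type and less RNA per cell cannot be told apart. The part of feeder cells in the values of *Stra8* and *Sohlh2*, or in those of the retinoic acid genes and other list genes that fell, was not tested.

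Of 10 two-cell-like genes tested, 9 were up-regulated and 0 down-regulated (median 1.98), *Sp110* among them only through dimmer probes (2.42 and 1.73, limma adjusted p = 0.0013 and 0.0095), while its brightest probe gave -0.023 (limma adjusted p = 0.94). *Usp17la* rose by 2.53, *Zscan4c* by 2.18, *Usp17lc* by 2.17, *Tcstv1* by 2.12, *Zscan4f* by 2.05 and *Usp17ld* by 1.91 (limma adjusted p from 0.0021 to 0.0091), and *Zfp352* (-0.15) did not pass the test. Members of these families have similar copies that a probe may not separate, and *Usp17la* has a second probe with 0.28 (limma adjusted p = 0.33). The summed level was 124, 137, 88.2 and 91.0 in control replicates 1 to 4 and 191, 186, 123 and 130 in *L3mbtl2*-KD replicates 1 to 4. The groups overlapped in this sum, whose largest term was the bright *Sp110* probe, and each *L3mbtl2*-KD sample exceeded the control sample of its number. Without *Sp110* the sum was 17.0 to 30.2 in control and 51.0 to 93.7 in *L3mbtl2*-KD ESCs, with no overlap, and all markers with a probe were well above background on some array. Their part in the values of *Stra8* and *Sohlh2* was not tested.

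The PGC markers *Ddx4*, *Dazl* and *Dppa3* (2.44, limma adjusted p = 0.0030) were up-regulated among 8 tested, with 0 down-regulated and a median of 0.28. *Tfap2c* (-0.024), *Prdm14* (-0.29) and *Dnd1* (0.18), which act early in PGCs, did not pass the test. Nor did *Prdm1* (-1.27, limma adjusted p = 0.072; named after its values were seen), though its groups did not overlap. The summed level was 11.6, 18.6, 15.7 and 12.4 in control replicates 1 to 4 and 25.7, 27.9, 27.6 and 26.1 in *L3mbtl2*-KD replicates 1 to 4, and its largest term was *Tfap2c* in control ESCs and *Ddx4* in *L3mbtl2*-KD ESCs. Without *Ddx4*, whose reporter served for the sort, the sum was 9.81, 16.7, 13.7 and 10.6 in control and 11.1, 15.6, 14.7 and 12.0 in *L3mbtl2*-KD replicates, and the groups overlapped.

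None of 10 ESC markers was called in limma (median -0.20), and the brightest were *Dppa5a* (0.17), *Tdgf1* (-0.28) and *Utf1* (0.12). *Klf4* fell by 0.70 (limma adjusted p = 0.027), and *Nanog* (-1.32, limma adjusted p = 0.096) did not pass the test, both named after their values were seen. Their summed level was 334, 348, 329 and 325 in control replicates 1 to 4 and 319, 353, 312 and 332 in *L3mbtl2*-KD replicates 1 to 4, with overlap. Without *Dppa5a*, the largest term, it was 176 to 198 in control and 158 to 170 in *L3mbtl2*-KD ESCs, with no overlap. Of 7 gonadal supporting cell markers tested, 1 was down-regulated and 0 up-regulated (median -0.15): *Sox9* cleared background in no *L3mbtl2*-KD sample and was lower by at least 2.16-fold (limma adjusted p = 0.0039), lost the call with normexp background correction, and was not tested when all arrays had to clear background. *Amh*, which defines Sertoli cells, was not well above background on any array. *Foxl2* (0.027), the largest term of the sum, and *Wt1* (0.53) did not pass the test, and *Gata4* fell by 0.92 (limma adjusted p = 0.0052), or by 1.04 without *L3mbtl2*-KD replicate 2. The summed level was 14.6, 14.96, 16.7 and 18.2 in control replicates 1 to 4 and 16.6, 14.3, 18.4 and 17.6 in *L3mbtl2*-KD replicates 1 to 4, with overlap.

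**Figure D5:**
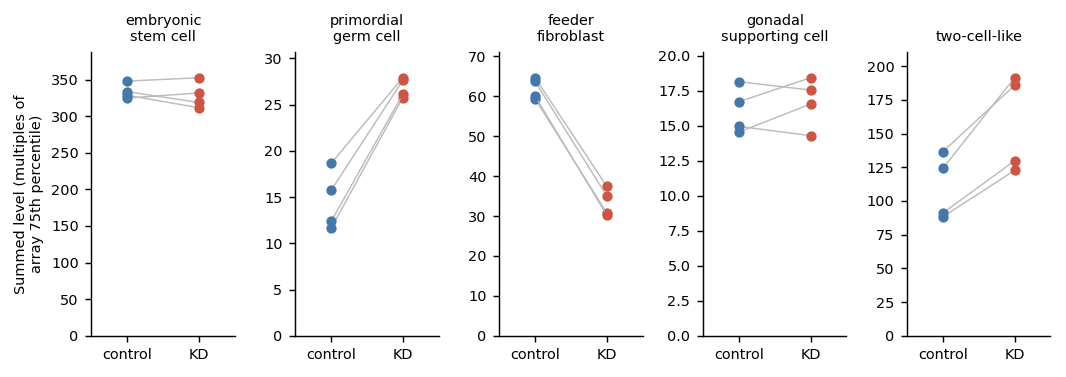
Summed level of each marker list (sum over genes of intensity divided by the 75th percentile of the array) in control (blue) and *L3mbtl2*-KD (red) ESCs, each panel with its own scale from 0 and lines joining samples of the same replicate number. The feeder fibroblast sum was 59.4 to 64.7 in control and 30.3 to 37.5 in *L3mbtl2*-KD ESCs, and the PGC sum, in which *Ddx4* is the largest *L3mbtl2*-KD term, was 11.6 to 18.6 and 25.7 to 27.9.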

How the data were processed

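The series holds 8 one-colour Agilent arrays, 4 of *L3mbtl2*-KD and 4 of control samples. The authors deposited the background-subtracted intensity of each spot from Feature Extraction, without normalization between arrays, and a table of log2 values. Set against the spot intensities, the deposited log2 table matched values obtained by subtracting the 75th percentile of an array and then the median of a probe (correlation per array of 0.9999 or more, 39242 probes). Its direction across arrays was therefore settled, and it was used as an alternative.

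Values here are log2 intensities from which the array's 75th percentile was subtracted, the shift named in the methods. Outlier spots and control spots were dropped, and repeated spots averaged. A RefSeq accession gave a gene name to 26055 of 39429 probes. A probe was tested if all arrays of either group had it well above background (23525 probes, 13653 genes), and 85 of these lacked a value on some array. The test was the moderated linear model of limma 3.58.1 (R 4.3.3), and p was adjusted by Benjamini and Hochberg's method across the tested probes. Calls needed an adjusted p below 0.05 and a change above 2-fold in any probe of the gene, and the probe with the highest mean signal stands for a gene. On simulated data with the same sample numbers and 200 probes changed 3-fold, the fit recovered 94.5% of them and made 2 false calls. The simulated noise was independent between samples and between probes, so noise shared by samples or probes was not covered. Smaller changes were not simulated.

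Named were the 9 regulators, *L3mbtl2*, *Ddx4*, *Dazl* and *Sycp3*, in each list the genes called (the 6 with the largest change where more were called) and up to 3 others with the highest signal, and the 3 genes most like each called regulator. The regulators and the lists were chosen with earlier results of these data known. The series describes the samples as biological replicates, and p values here measure the spread between samples. The 75th percentile was 791 to 1038 in *L3mbtl2*-KD and 854 to 1024 in control arrays, and with 4 arrays per group some small changes may go undetected. Per the file headers, other columns are flags of the scanner software, such as whether a spot is well above background.

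There were 2 slides, and both groups were on each. Control samples took positions 1 and 3 and *L3mbtl2*-KD samples positions 2 and 4, so position and group cannot be told apart. With group means removed, samples that share a replicate number correlated (0.38 to 0.58) more than other pairs (-0.44 to 0.25), so the numbers pair the samples, as inferred from the values.

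Alternatives were normexp background correction (offset 50, on median spot signals), quantile normalization, the deposited log2 table and other filters on dim probes. Further ones were blocks for slide or for replicate number, a variance trend with intensity and the one-way test named in the study's captions. A 1.5-fold threshold, one probe per gene and leaving out each sample were also run. The normexp offset is added to every signal, so it tends to shrink the fold changes of dim probes. The paired permutation test and the marker sums without 1 gene were added after the values were seen. Tables and figures were made in Python 3.11.15 with numpy 2.4.6, pandas 2.3.3, scipy 1.17.1 and matplotlib 3.10.9.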

Additional observations from a re-analysis of the deposited data

Results flagged for a closer look

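In 4 of 92 groups of 4 samples examined, 1 sample lay far from the others (its gap to the nearest sample divided by the whole range, Dixon's ratio), and chance gives about 1 in 20 groups, or 4.6. *Sohlh2* in control replicate 4 was 0.36, while the other control samples averaged 0.53 (ratio 0.835). *Mybl1* in *L3mbtl2*-KD replicate 2 was -2.95, the others averaging -4.52 (ratio 0.852). *Rxrb* in control replicate 1 was 3.23, the others averaging 3.05 (ratio 0.851), and *Crem* in *L3mbtl2*-KD replicate 1 was -2.22, the others averaging -1.497 (ratio 0.876). Without control replicate 4, the log2 fold change of *Sohlh2* was 1.14 (limma adjusted p = 0.0041).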

How the results depend on the processing

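*Stra8* and *Sohlh2* were up-regulated under each alternative run over all samples or with 1 sample left out, and *Dmrt1* kept its adjusted p below 0.05 in all of them. Leaving out single samples gave log2 fold changes of 1.21 or more for *Stra8*, 1.08 to 1.25 for *Sohlh2*, 0.56 to 0.66 for *Dmrt1* and 0.69 to 0.93 for *Tcfl5*. Within slides *Sohlh2* was at 0.96 and 1.40, and the cause was not tested. *Tcfl5* (0.81) had a limma adjusted p of 0.053 without the filter on dim probes, where more probes are tested, and 0.055 under the study's one-way test. *Sohlh1* changed sign with single samples left out (-0.21 to 0.47).

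With a threshold of 1.5-fold, 4 regulators, 700 genes in all and 14 list genes were up-regulated, and 1014 genes and 11 list genes were down-regulated, since the rule is looser. Without the filter on dim probes 1 regulator, *Lhx8*, was down-regulated. After normexp background correction 194 genes were up-regulated, 159 down-regulated, and 3 list genes down-regulated in place of 7. Up-regulated genes made up 55.0% of those calls, against 43.7% before. Quantile normalization gave 387 up-regulated and 366 down-regulated genes (51.4% up-regulated). The cause was not tested for either. Probes above background on all arrays gave 290 down-regulated genes, with fewer tested. The study's one-way test gave 4 list genes down-regulated, and the cause of that was not tested. The replicate block, which pairs samples by number, called 358 genes up and 469 down, and changed the call of no regulator. Signal over background limits *Figla*, *Lhx8* and *Nobox*.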
